A study of Homo sapiens with 39 samples.

Results

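The addition of olaparib to abiraterone was examined in C4-2B cells, a castration-resistant prostate cancer line derived from LNCaP, by setting the 3 libraries treated with abiraterone acetate (5 µM) plus olaparib (1 µM) against the 3 treated with abiraterone acetate (5 µM) alone. These 6 libraries were chosen by their treatment labels from the 39 of the series, and both groups were harvested after 5 days. The comparison asks what a PARP inhibitor (PARPi) does to the transcriptome of cells that also receive an androgen receptor pathway inhibitor (ARPi). Other groups of the same 5-day panel, each with 3 libraries, served as references: DMSO, olaparib (1 µM), enzalutamide (20 µM) and enzalutamide plus talazoparib (10 nM). The cells grew in RPMI medium with 10% fetal bovine serum and were treated the day after plating. The study rests here on 1 cell line. The labels do not say that the replicates of a group came from separate cultures, and the p-values therefore measure only the spread between these libraries.

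Olaparib blocks PARP1 and PARP2, enzymes that mark broken DNA with ADP-ribose chains, and it traps them on chromatin, where they hinder replication. Abiraterone inhibits CYP17A1, an enzyme of androgen synthesis, and lowers the signal to the androgen receptor. When replication is disturbed, p53 can induce CDKN1A, the cyclin-dependent kinase inhibitor p21, and repressor complexes then silence genes for DNA replication and mitosis, many of whose promoters carry NF-Y sites and the cell cycle genes homology region.

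Poly(A) RNA was sequenced from stranded libraries, and totals ran from 30379392 to 33135225 counts with abiraterone and from 26932205 to 37975379 with the combination. On log CPM, pairs of libraries lay between 66.2 and 72.9 apart within these groups (6 pairs) and between 77.0 and 83.6 across them (9 pairs). Replicates differed by more than read sampling alone, with a chi-square per degree of freedom between 2.81 and 4.39. All 15 luminal prostate markers passed the filter on low counts, with sums between 4532 and 4649 CPM (counts scaled to a common library size with edgeR's TMM factors) with abiraterone and between 4787 and 4881 with the combination. Of 11 blood cell markers 6 passed it, with sums of at most 9.51 CPM in any of the 6 libraries, and 5 of 12 fibroblast markers did, with sums of at most 66.2 CPM, mostly from VIM and COL1A1. The share of counts from the mitochondrial genome was 10.9% to 11.5% with abiraterone and 13.2% to 13.8% with the combination, without overlap, and its part in the results below was not tested.

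Adding olaparib changed 5436 of 18625 genes tested (29.2%) by edgeR's quasi-likelihood test at an adjusted p under 0.05. Of these, 2691 were higher (14.4%) and 2745 lower (14.7%) than with abiraterone alone. Most changes were small, with a median absolute log2 fold change of 0.24 among the genes called. Only 355 also reached an absolute log2 fold change of 1, and among those the rises outnumbered the falls, 269 against 86. The median over all genes tested was 0.0092.

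**Figure D1:**
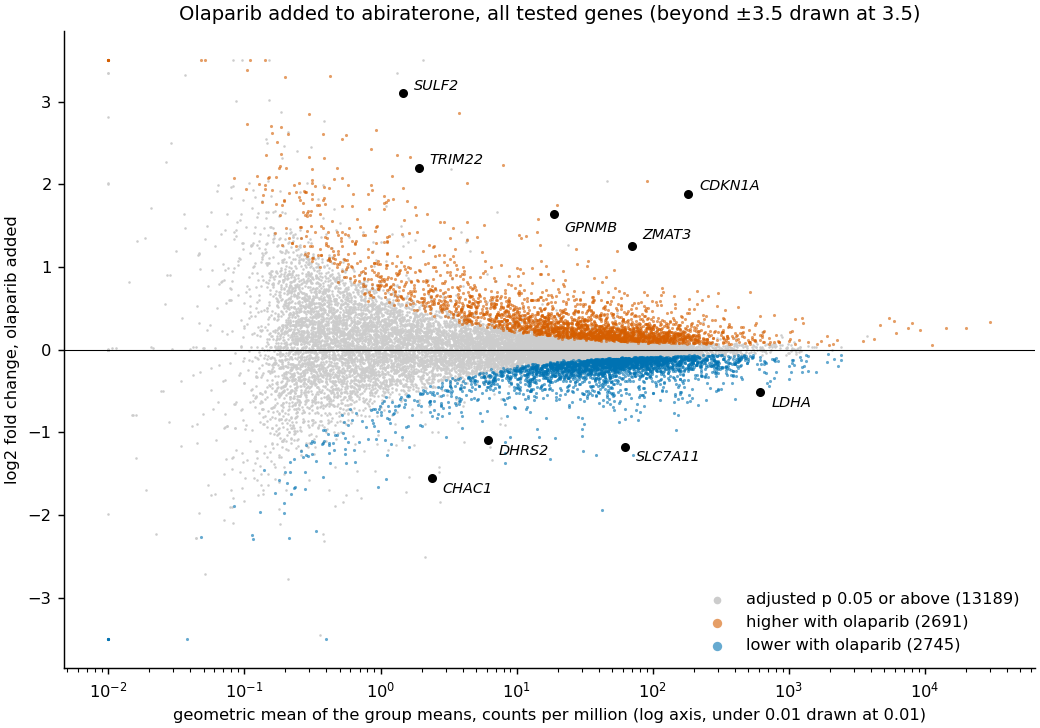
Log2 fold change of each of the 18625 genes tested when olaparib was added to abiraterone (vertical axis) against its expression in CPM (horizontal, log axis). Orange and blue points passed an adjusted p of 0.05, and the large changes are mostly rises, such as SULF2 at 3.10 and CDKN1A at 1.89.

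Among the 12 largest rises with a symbol, at least 100 counts on average and groups without overlap were an enzyme of the cell surface, deaminases, a lipase and p53-responsive genes. The rule for these genes and for the falls below fixed the lack of overlap, which 21.1% of all genes showed as a rise, so nothing is read from it. SULF2 (ENSG00000196562.16, GRCh38 chr20:47656197-47786616), a sulfatase that trims heparan sulfate outside the cell, had 0.465, 0.286 and 0.739 CPM with abiraterone and 4.20, 3.87 and 4.82 CPM with the combination. The log2 fold change was 3.10 ± 0.26 (SE; adjusted p = 1.45e-11, edgeR's quasi-likelihood test). CEL (ENSG00000170835.17, GRCh38 chr9:133061981-133071861), a bile salt-dependent lipase with a pseudogene copy that may share its reads, had 3.60, 3.40 and 4.03 CPM with abiraterone and 17.3, 16.2 and 18.4 CPM with the combination. It rose by 2.23 ± 0.10 on the log2 scale.

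The cytidine deaminases APOBEC3H and APOBEC3C, which restrict viruses and retroelements, rose together. APOBEC3C (GRCh38 chr22:39014257-39020352) had 2.15, 1.97 and 2.31 CPM with abiraterone and 9.21, 8.07 and 8.70 CPM with the combination. APOBEC3H (GRCh38 chr22:39097224-39104067) had 0.784, 0.794 and 0.616 CPM without olaparib and 3.52, 3.61 and 3.95 CPM with it. The log2 fold changes were 2.01 ± 0.15 and 2.33 ± 0.20 (adjusted p = 6.03e-13 and 2.33e-11 by edgeR's quasi-likelihood test), although paralogs of this family are similar enough to share some reads. The long non-coding RNA PURPL, a p53-induced transcript, rose by 1.75 ± 0.10, from 10.9 to 36.4 CPM on average. GPNMB, a transmembrane glycoprotein of lysosomes and melanosomes, rose by 1.64 ± 0.081, from 10.6 ± 0.900 to 33.0 ± 2.02 CPM (SD, n = 3). The adhesion molecule CEACAM1 rose by 1.64 ± 0.21, and the adaptor gene FYB2 by 1.63 ± 0.18. PLCG2, a phospholipase of receptor signaling, rose by 1.73 ± 0.32, but its libraries with abiraterone were uneven, at 0.436, 1.27 and 1.23 CPM. RN7SL2, an RNA of the signal recognition particle with near-identical copies, is uncertain, and its call (log2 fold change 2.04 ± 0.72, adjusted p = 0.0468, edgeR's quasi-likelihood test) was lost when any of the libraries except abiraterone replicate C was left out, with an adjusted p of at most 0.167. The p53 targets TRIM22 and CDKN1A complete the 12.

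Of the 12 largest falls, CHAC1 was the deepest, and SLC7A11, BCAT1 and SLC6A9 also act on amino acids or glutathione. CHAC1 (ENSG00000128965.13, GRCh38 chr15:40952962-40956512), which degrades glutathione, had 5.17, 3.59 and 3.57 CPM with abiraterone and 1.17, 1.57 and 1.41 CPM with the combination. SLC7A11 (ENSG00000151012.13, GRCh38 chr4:138164097-138242349), the cystine-glutamate antiporter, had 89.2, 97.2 and 97.1 CPM with abiraterone and 39.1, 41.6 and 44.6 CPM with the combination. The log2 fold changes were -1.56 ± 0.15 and -1.18 ± 0.076 (adjusted p = 5.36e-10 and 4.98e-09 by edgeR's quasi-likelihood test). The glycine transporter SLC6A9 and BCAT1, a transaminase of branched-chain amino acids, changed by -1.06 ± 0.10 and -1.07 ± 0.062.

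Outside amino acid metabolism, the myo-inositol transporter SLC2A13 had 60.6, 59.8 and 59.7 CPM with abiraterone and 23.7, 25.2 and 25.1 CPM with the combination, a log2 fold change of -1.28 ± 0.041. RILPL2, which binds Rab GTPases, went from 111 ± 1.68 to 45.6 ± 1.96 CPM (SD, n = 3), a log2 fold change of -1.28 ± 0.046. The stress-responsive NIBAN1 had -1.33 ± 0.15 and the dehydrogenase DHRS2 -1.10 ± 0.10. The remaining 4 of the 12 are given without comment on function, namely FAM72C (-1.25) and MAGEA2B (-1.22), which have near-identical copies and uncertain counts, and MAB21L4 (-1.12) and STYXL2 (-1.06).

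Direct p53 targets rose almost as a block. Of 50 listed genes, all of them tested, 42 rose and 1 fell when olaparib was added, with a median log2 fold change of 0.56 against 0.0092 over all genes, where 14.4% rose. CDKN1A (ENSG00000124762.14, GRCh38 chr6:36676460-36687337), the p21 cell cycle inhibitor, had 94.1, 97.5 and 93.2 CPM with abiraterone and 346, 353 and 355 CPM with the combination. The log2 fold change was 1.89 ± 0.051 (adjusted p = 5.97e-16, edgeR's quasi-likelihood test). SPATA18, a gene of mitochondrial quality control, had 7.73, 8.16 and 8.90 CPM without olaparib and 21.8, 25.8 and 26.2 CPM with it, a log2 fold change of 1.58 ± 0.075. TRIM22, a ubiquitin ligase that interferon and p53 induce, had 0.959, 0.572 and 1.14 CPM without olaparib and 3.42, 4.57 and 4.31 CPM with it, a log2 fold change of 2.20 ± 0.22.

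Further members that rose were picked after their values were seen. The death receptor FAS rose by 1.38 ± 0.093 on the log2 scale. Among genes of growth arrest, ZMAT3, an RNA-binding protein, rose by 1.25 ± 0.039, BTG2 by 1.20 ± 0.068 and GADD45A by 0.98 ± 0.093. In the feedback loop onto p53 itself, MDM2, the ubiquitin ligase that degrades p53, rose by 0.60 ± 0.029, from 183, 186 and 189.9 CPM to 282, 281 and 283 CPM. The phosphatase PPM1D rose by 0.55 ± 0.053. DNA repair genes of the list, XPC and DDB2, rose by 0.48 ± 0.034 and 0.87 ± 0.068.

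The only member that fell was PLK3, a kinase of the stress response, with 14.6, 11.8 and 10.6 CPM against 7.78, 9.26 and 9.97 CPM and a log2 fold change of -0.45 ± 0.10. The proapoptotic PMAIP1 had -0.18 ± 0.11 and did not pass the test (adjusted p = 0.228, edgeR's quasi-likelihood test). Of the 42 that rose, 39 also had a higher mean level than DMSO, and 34 a higher one than olaparib alone.

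In the BCL2 family, which sets the threshold for mitochondrial cell death, 7 of 19 tested members rose and 2 fell (22 listed, median 0.022). Over all genes 14.4% rose and 14.7% fell, so the share of falls is below that of all genes. Alternative fits gave up to 4 falls, above that share, while every fit that left out a library gave 2. BBC3, the proapoptotic BH3-only protein PUMA, had 1.63, 2.48 and 2.00 CPM without olaparib and 5.24, 5.57 and 4.75 CPM with it. These groups did not overlap, and the log2 fold change was 1.35 ± 0.16 (adjusted p = 1.65e-08, edgeR's quasi-likelihood test). The proapoptotic BIK and BAX rose by 0.50 ± 0.094 and 0.40 ± 0.058, while the survival gene BCL2L1 rose by 0.16 ± 0.030. BCL2, also a survival gene, had 3.11, 3.75 and 3.36 CPM against 2.70, 2.17 and 2.03 CPM, a log2 fold change of -0.56 ± 0.17, and without combination replicate C its adjusted p was 0.0509 by edgeR's quasi-likelihood test. MCL1 had -0.020 ± 0.030 and did not pass the test. The list's median was 0.0077 without abiraterone replicate C or combination replicate A, and 0.013 without abiraterone replicate B.

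**Figure D2:**
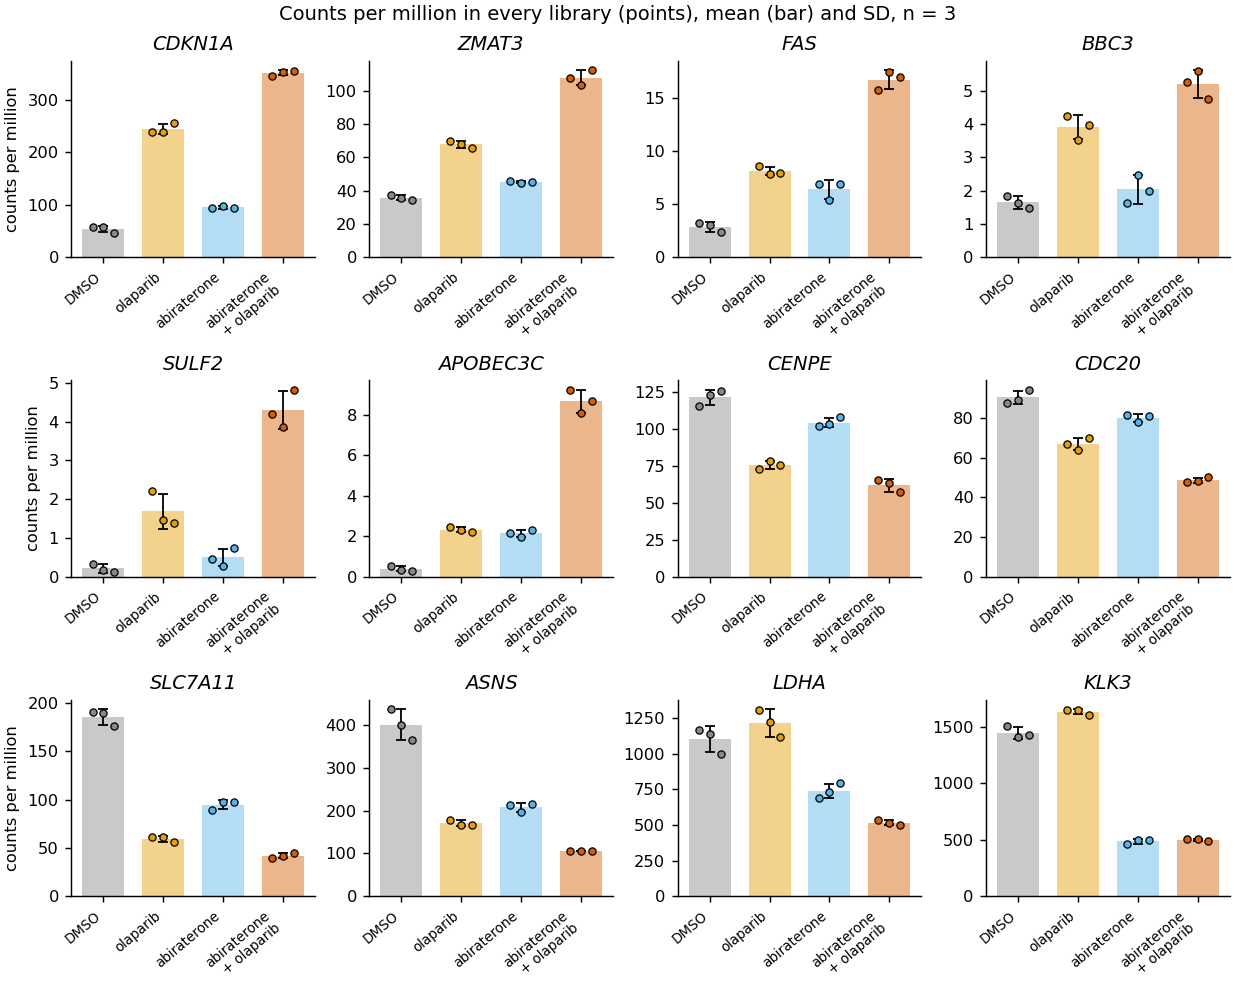
CPM of 12 genes in the DMSO, olaparib, abiraterone and combination libraries (points, 3 a group), with group means as bars and SD as whiskers, each axis from 0. CDKN1A, ZMAT3, FAS, BBC3, SULF2 and APOBEC3C stand higher with the combination than with abiraterone, CENPE, CDC20, SLC7A11, ASNS and LDHA lower, and the KLK3 points of these groups overlap.

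Among the gene lists, genes of mitosis had the highest share of falls. Of the 54 G2/M genes, all tested, 50 fell and none rose, with a median log2 fold change of -0.53, where 14.7% of all genes fell. In bulk RNA, fewer cells in a phase and less RNA per cell in that phase cannot be told apart. The promoters of the members that fell most are shown for the letters of the cell cycle genes homology region (TTTGAA or TTTAAA) and of the NF-Y box (CCAAT), which are in capitals on either strand. They are 250 bases upstream of the RefSeq start (GRCh38.p14), from the strand of the gene: PSRC1 at chr1:109283146-109283395 (minus strand), CENPE at chr4:103198344-103198593 (minus strand) and CDC20 at chr1:43358731-43358980 (plus strand).
PSRC1: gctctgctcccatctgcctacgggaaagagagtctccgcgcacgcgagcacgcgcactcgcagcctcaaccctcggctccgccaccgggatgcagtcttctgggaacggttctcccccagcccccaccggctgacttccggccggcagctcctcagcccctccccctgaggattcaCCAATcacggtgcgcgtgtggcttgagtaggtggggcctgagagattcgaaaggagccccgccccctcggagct
CENPE: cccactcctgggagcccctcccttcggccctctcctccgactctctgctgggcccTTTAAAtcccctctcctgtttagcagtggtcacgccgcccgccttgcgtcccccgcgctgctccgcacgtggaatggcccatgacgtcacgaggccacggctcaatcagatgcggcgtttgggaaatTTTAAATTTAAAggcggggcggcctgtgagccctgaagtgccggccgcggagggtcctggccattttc
CDC20: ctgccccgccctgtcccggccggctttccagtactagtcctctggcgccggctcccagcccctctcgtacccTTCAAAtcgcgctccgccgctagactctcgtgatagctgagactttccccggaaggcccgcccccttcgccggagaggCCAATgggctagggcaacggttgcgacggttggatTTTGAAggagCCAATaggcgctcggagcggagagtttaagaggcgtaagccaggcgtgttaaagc
CDC20 holds TTTGAA at -178 and -65 from the start and CCAAT at -100 and -55, CENPE holds TTTAAA at -195, -68 and -62, and PSRC1 holds CCAAT at -74. These matches do not overlap each other. AURKA is between CENPE and CDC20 by size of change.

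In the full 300-base windows of RefSeq, which run 50 bases past the start, TTTGAA or TTTAAA occurred in 34 of the 41 falling G2/M genes with a promoter entry (82.9%), against 24.3% of all 27305 promoters. CCAAT occurred in 28 of the 41 (68.3%), against 35.7% of all. Both together occurred in 24 of the 41 (58.5%), against 9.49% of all. The S phase list shared the CCAAT letters (23 of 33 promoters) but not the homology region (4 of 33). A pair of adjoining p53 decamers was found in 0 of the 39 promoters of p53 targets and in 8 of all 27305. Such matches are letters in a window, not binding sites.

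PSRC1, a microtubule-binding protein of the spindle, had 22.5, 21.4 and 21.6 CPM with abiraterone and 12.3 ± 0.279 CPM with the combination (SD, n = 3), a log2 fold change of -0.83 ± 0.065. CENPE, the kinetochore motor, had 101, 103 and 108 CPM against 65.3, 63.0 and 56.9 CPM, a log2 fold change of -0.75 ± 0.050. AURKA, the centrosomal kinase, had 70.5, 64.5 and 66.1 CPM against 38.5, 40.4 and 42.2 CPM, a log2 fold change of -0.73 ± 0.053. For all these genes the groups were far apart (adjusted p of 2.83e-12, 1.19e-11 and 5.98e-12 by edgeR's quasi-likelihood test). CDC20, an activator of the anaphase-promoting complex, changed by -0.72 ± 0.057. Members without a call were CDK1 (-0.079), RANGAP1 (-0.061), CBX5 (-0.0090) and JPT1 (0.045). The proliferation marker MKI67 had 219.9, 267 and 231 CPM with abiraterone and 161, 152 and 164 CPM with the combination. Its abiraterone libraries spread widely, yet all lay above the combination (log2 fold change -0.59 ± 0.094).

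Replication genes fell less deeply. Of 43 S phase genes 34 fell and none rose, with a median of -0.26, where 14.7% of all genes fell. E2F8, a repressor of the E2F family that cycles itself, had 18.1, 16.1 and 16.8 CPM with abiraterone and 10.3, 11.1 and 13.1 CPM with the combination, a log2 fold change of -0.58 ± 0.086. CDC45, part of the replicative helicase, had 39.7, 37.1 and 35.2 CPM against 26.0, 24.2 and 27.3 CPM and changed by -0.53 ± 0.070. WDR76 changed by -0.42 ± 0.044. None of these 3 overlapped between the groups, as was so for 19.9% of all genes on the side of a fall.

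Homologous recombination repairs the double-strand breaks that arise from trapped PARP, and loss of it makes cells sensitive to PARPi. Of 46 genes for homologous recombination and the Fanconi pathway, 30 fell and 2 rose, with a median of -0.21, where 14.7% of all genes fell and 14.4% rose. UBE2T, the ubiquitin-conjugating enzyme of the Fanconi pathway, had 53.9, 49.1 and 49.9 CPM with abiraterone and 39.5, 38.3 and 39.7 CPM with the combination, a log2 fold change of -0.38 ± 0.043. RBBP8, the end resection factor CtIP, changed by -0.36 ± 0.049 and the checkpoint kinase CHEK1 by -0.34 ± 0.062. BRCA1 had 76.8, 80.2 and 79.5 CPM against 64.4, 67.8 and 70.9 CPM, without overlap, and a log2 fold change of -0.22 ± 0.052 (adjusted p = 0.00196, edgeR's quasi-likelihood test).

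BRCA2 had 70.0, 77.6 and 73.4 CPM with abiraterone and 60.4, 57.4 and 60.9 CPM with the combination, and its log2 fold change of -0.31 ± 0.11 barely passed (adjusted p = 0.0453, edgeR's quasi-likelihood test). It lost the call when any single library of the 6 was left out, with adjusted p from 0.0517 to 0.136. PALB2, the partner of BRCA2, had -0.067 ± 0.049 and did not pass. The members that rose were the apical kinases ATM (0.18 ± 0.059) and ATR (0.12 ± 0.044). ATM lost its call without abiraterone replicate A or C or combination replicate A or B, with adjusted p of at most 0.158. The list held 0 rises without abiraterone replicate A or combination replicate B, and 1 without abiraterone replicate B or C or combination replicate A.

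The drug's own targets moved little. PARP1 had 514, 528 and 530.0 CPM with abiraterone and 491, 485 and 475 CPM with the combination, below it in every library, with a log2 fold change of -0.12 ± 0.021. PARP2 had 35.7, 33.2 and 35.8 CPM against 28.1, 30.5 and 30.9 CPM, a log2 fold change of -0.23 ± 0.050 (adjusted p = 5.57e-04, edgeR's quasi-likelihood test). In the family with its erasers, 4 of 19 tested members rose and 2 fell (20 listed, median -0.037), a share of calls near the 29.2% of all genes. The antiviral mono-ADP-ribosyltransferase PARP10 rose by 0.19 ± 0.051 and TIPARP by 0.19 ± 0.070. TIPARP lost its call without abiraterone replicate A or C or combination replicate A or C (adjusted p of at most 0.270), and without abiraterone replicate A the list had 2 rises. The list's median was -0.0093 without abiraterone replicate B, -0.022 without abiraterone replicate C, and -0.0096 and -0.0015 without combination replicates B and C.

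The amino acid response, which ATF4 drives when amino acids or protein folding fail, stood out among the falls. Of 32 listed genes, all tested, 25 fell and 2 rose, with a median of -0.41, where 14.7% of all genes fell and 14.4% rose. ATF4 itself had 349, 338 and 346 CPM with abiraterone and 245, 247 and 238 CPM with the combination, groups well apart, and a log2 fold change of -0.50 ± 0.028 (adjusted p = 6.38e-16, edgeR's quasi-likelihood test). Asparagine synthetase, ASNS, had 214, 196 and 215 CPM against 105, 106 and 107 CPM and changed by -0.98 ± 0.065. In serine synthesis, PHGDH and PSAT1 changed by -0.48 ± 0.031 and -0.67 ± 0.047. The amino acid transporter SLC7A5 changed by -0.77 ± 0.031 and the mitochondrial folate enzyme MTHFD2 by -0.52 ± 0.031.

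The members of this list that rose were ATF3 (0.43 ± 0.064) and SESN2 (0.68 ± 0.055), and SESN2, an inhibitor of growth signaling, is on the p53 list as well. SESN2 had 18.2, 18.1 and 19.3 CPM with abiraterone and 31.0, 28.8 and 29.1 CPM with the combination, without overlap. DDIT3, which codes for the stress factor CHOP, had 0.067 ± 0.082 and did not pass. Of the 25 that fell, 25 had a lower mean level than DMSO and 24 a lower one than olaparib alone.

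Related programs fell by less, and 14.7% of all genes fell and 14.4% rose. In the unfolded protein response 19 of 30 genes fell and 2 rose (median -0.12, with 0 or 1 rise whichever library was left out), led by XBP1, its transcription factor, with 151, 140.2 and 151 CPM against 107, 103 and 104 CPM and a log2 fold change of -0.50 ± 0.038. CREB3L2 and SSR3 of the same list changed by -0.46 ± 0.031 and -0.31 ± 0.031. Among MYC targets and genes of ribosome biogenesis 23 of 35 fell and none rose (median -0.15), with ODC1, of polyamine synthesis, at -0.35 ± 0.024, TCOF1 at -0.31 ± 0.048 and SRM at -0.27 ± 0.041. MYC itself had 0.12 ± 0.061 and did not pass.

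In cholesterol and fatty acid synthesis 21 of 33 tested genes fell and 4 rose (median -0.21), where 14.7% of all genes fell and 14.4% rose. The desaturase FADS2 had 792, 784 and 800.3 CPM with abiraterone and 611, 579 and 610.0 CPM with the combination, without overlap, a log2 fold change of -0.40 ± 0.024 (adjusted p = 3.64e-15, edgeR's quasi-likelihood test). FADS1 changed by -0.42 ± 0.035, the stearoyl desaturase SCD by -0.36 ± 0.029 and the LDL receptor by -0.33 ± 0.062. The reductase TM7SF2 rose by 0.45 ± 0.037. The 4 rises became 2 without abiraterone replicate A or combination replicate B or C. Of the 21 that fell, 20 had a lower mean level than in DMSO and 20 a lower one than with olaparib alone.

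Androgen-responsive genes had more rises than falls. Of 64 listed, all tested, 30 rose and 10 fell when olaparib was added, with a median of 0.14. Over all genes 14.4% rose and 14.7% fell, so the share of falls is near that of all genes. Without combination replicate A 22 rose and the median was 0.082. The summed level of the list was 8703 to 8719 CPM with abiraterone and 8941 to 9278 CPM with the combination, against 18724 to 18959 CPM with DMSO. Of the 30 that rose, 6 had a higher mean level with the combination than with DMSO.

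KLK3, the gene for prostate-specific antigen, had 461, 497 and 498 CPM with abiraterone and 503, 503 and 492 CPM with the combination. The groups overlap, and the log2 fold change was 0.042 ± 0.045 (adjusted p = 0.544, edgeR's quasi-likelihood test), against DMSO libraries at 1507, 1409 and 1434 CPM. FKBP5, a co-chaperone that androgen strongly induces, had 126, 132 and 132 CPM against 124, 122 and 130.1 CPM (log2 fold change -0.054 ± 0.028, adjusted p = 0.159, edgeR's quasi-likelihood test), and DMSO libraries were at 826, 838 and 857 CPM. It passed the test as a fall without abiraterone replicate A or combination replicate C, and with total count scaling, with values of -0.083, -0.082 and -0.080.

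TMPRSS2 had 43.1, 47.4 and 47.3 CPM against 54.0, 56.1 and 56.4 CPM and a log2 fold change of 0.27 ± 0.089, and lost its call (adjusted p = 0.0306, edgeR's quasi-likelihood test) without any single library except abiraterone replicate B, with adjusted p of at most 0.136. The transcription factor MAF rose most among called members, from 3.11, 3.37 and 3.08 CPM to 7.88, 8.43 and 8.19 CPM, a log2 fold change of 1.36 ± 0.095, with DMSO at 39.6, 37.3 and 34.9 CPM. The ion channel TRPM8 rose by 0.92 ± 0.071 and RHOU by 0.60 ± 0.041. Of the members that fell, ODC1 was on the MYC list too, and the ETS factor SPDEF changed by -0.34 ± 0.042. CYP17A1, the target of abiraterone, held 0 counts in each abiraterone library and 3, 1 and 3 with the combination, too few for a fold.

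Matrix and fatty acid oxidation genes had more rises than falls, where 14.4% of all genes rose and 14.7% fell. Of 47 tested extracellular matrix and integrin genes (59 listed) 19 rose and 3 fell, with a median of 0.19. THBS1, the matrix protein thrombospondin, had 6.33, 6.83 and 7.08 CPM with abiraterone and 16.6, 18.1 and 16.6 CPM with the combination, a log2 fold change of 1.34 ± 0.10, without overlap. COL17A1, a collagen of hemidesmosomes, rose by 2.65 ± 0.32 from a low level of 0.436, 0.286 and 0.370 CPM. TNC rose by 1.36 ± 0.45, from 0.378, 0.191 and 0.154 CPM to 0.586, 0.645 and 0.652 CPM, and lost its call without abiraterone replicate B or C or combination replicate B or C, with adjusted p of at most 0.118. In fatty acid oxidation 11 of 30 genes rose and 2 fell (median 0.067), with ACOX2 at 0.52 ± 0.10, ACADL at 0.39 ± 0.036 and ACAD10 at 0.36 ± 0.058. The 2 falls became 1 without combination replicate B.

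Of 45 tested interferon-stimulated genes (50 listed) 10 rose and 3 fell (median 0.14), a share of calls near the 29.2% of all genes. By direction, 14.4% of all genes rose and 14.7% fell, so the share of rises is above and that of falls below. The rises numbered 7 to 9 over the fits that left out a library. The 3 falls became 1 without abiraterone replicate B or combination replicate B. The GTPase GBP2 had 1.57, 1.43 and 1.39 CPM with abiraterone and 3.68, 3.92 and 2.97 CPM with the combination, a log2 fold change of 1.27 ± 0.25. IFI27 and OAS1 rose from under 1 CPM by 1.15 ± 0.35 and 0.88 ± 0.27, and lost their calls without abiraterone replicate A and B, in that order (adjusted p = 0.0927 and 0.113 by edgeR's quasi-likelihood test). In peptide loading and MHC class I 3 of 18 rose and 3 fell (median 0.066), also near that background, with TAP2, a peptide transporter, at -0.35 ± 0.049, PSMB10 at 0.31 ± 0.11 and HLA-B at 0.18 ± 0.070. PSMB10 and HLA-B were close to the threshold. PSMB10 lost its call without any single library except abiraterone replicate B, and HLA-B without any except combination replicate C, with adjusted p of at most 0.165 and 0.267. The list then had 1 rise without abiraterone replicate A or C or combination replicate A or B, and its median lay between 0.032 (without abiraterone replicate A) and 0.055 (without combination replicate C) over the fits that left out a library.

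The Wnt list had 8 rises and 7 falls among 34 tested genes (42 listed, median -0.069), where 14.4% of all genes rose and 14.7% fell, with WNT5A, a non-canonical ligand, at -0.49 ± 0.095. The receptors FZD8, at 1.05, 1.14 and 1.54 CPM with abiraterone, and ROR2, at 0.930, 0.635 and 0.832 CPM, had -0.76 ± 0.25 and -0.91 ± 0.34 and lost their calls without abiraterone replicate C or combination replicate C, ROR2 also without replicate A of either group, with adjusted p of at most 0.157. Without combination replicate C the median was -0.014, and without abiraterone replicate B -0.042. The 7 falls became 4 without abiraterone replicate A, 2 without abiraterone replicate C, and 3 without combination replicate A or C, all below the share of all genes. Of 18 tested NF-kB targets (34 listed) 3 rose and 3 fell, again near the background, with IRF1, an interferon regulatory factor, at 0.47 ± 0.14, TNFAIP8 at 0.28 ± 0.062 and the superoxide dismutase SOD2 at -0.20 ± 0.040. Without abiraterone replicate C or combination replicate C IRF1 lost its call (adjusted p of at most 0.0942, edgeR's quasi-likelihood test) and the list had 1 rise. Of 15 luminal markers 6 rose and 2 fell, with the prostatic acid phosphatase ACP3 at 0.50 ± 0.047, and the lineage factors FOXA1 and HOXB13 as the falls at -0.16 and -0.20. Of 24 neuroendocrine markers 7 passed the filter. The polycomb methyltransferase EZH2 changed by -0.21 ± 0.039, and the repressor REST had 0.087, a call lost without any single library except abiraterone replicate B (adjusted p of at least 0.0564, edgeR's quasi-likelihood test).

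No tested marker of basal, fibroblast or blood cells fell, where 14.7% of all genes fell and 14.4% rose. The median log2 fold changes of the tested markers were 0.46, 0.35 and 0.74. With only the groups compared the basal and blood medians were 0.080 and 0.16, and without combination replicate A the blood median was 0.48. Of 6 tested basal markers (9 listed) only LAMB3 rose, by 0.83 ± 0.22 from 1.40 CPM, and of 5 tested fibroblast markers ACTA2, VIM and COL1A1 rose, by 1.80, 0.35 and 0.18. COL1A1 lost its call without any single library except abiraterone replicate A, with adjusted p of at most 0.213. Of 6 tested blood markers CD68, a lysosomal protein, rose by 0.64 ± 0.16. The rises in the basal and blood lists, 1 of 6 each, are near the share of all genes. Fits that left out a library gave up to 2 rises and up to 1 fall among blood markers. The part of the markers of these cell types in the rise of matrix genes was not tested.

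**Figure D3:**
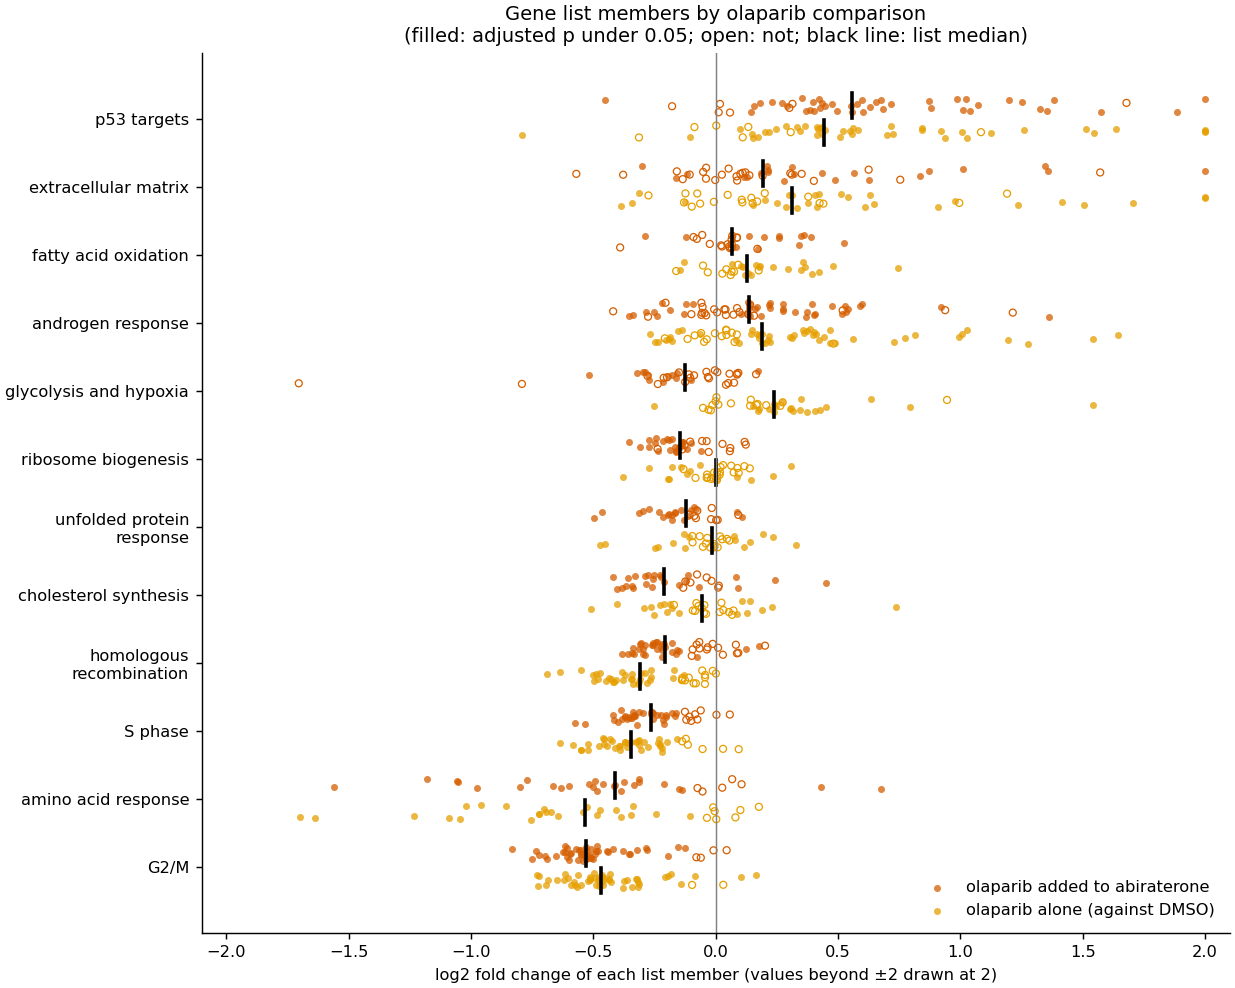
Log2 fold change of every tested member of 12 gene lists, for olaparib added to abiraterone (dark orange) and for olaparib alone against DMSO (yellow), with filled points past an adjusted p of 0.05 and list medians in black. The p53 and G2/M lists lie on opposite sides of 0 in both comparisons, and the glycolysis list changes side, from a median of 0.24 with olaparib alone to -0.12 when it was added to abiraterone.

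The effect of olaparib with abiraterone was then set against its effect without, and the comparisons share no library. Of the 5436 genes changed with abiraterone, 3387 (62.3%) were also among the 6638 that olaparib alone changed against DMSO (35.6% of those tested), which is 51.0% of the latter. Of these, 3185 moved the same way and 202 the opposite way. The Pearson correlation of the log2 fold changes was 0.31 over the 18625 genes, a description only, since genes do not vary independently. The difference between the effects passed edgeR's quasi-likelihood test for 2386 genes (12.8%), of which 882 had a higher (4.74%) and 1504 a lower (8.08%) effect with abiraterone.

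The p53 and mitotic lists moved in the same direction with and without abiraterone, while single members differed. For p53 targets olaparib alone raised 41 of 50 (median 0.44, where 19.6% of all genes rose and 16.0% fell), and the effect was higher with abiraterone for 10 and lower for 7, against 4.74% and 8.08% of all genes. CDKN1A had 58.2, 57.3 and 46.8 CPM with DMSO and 239, 238 and 256 CPM with olaparib, a log2 fold change of 2.18 ± 0.053, which is larger than that with abiraterone (difference -0.29 ± 0.073, adjusted p = 0.0111, edgeR's quasi-likelihood test). ZMAT3 went the other way, with a difference of 0.33 ± 0.057, and so did KITLG, the KIT ligand, with 0.90 ± 0.21. For G2/M genes olaparib alone lowered 50 of 54 (median -0.47), and the effect differed for 8, a share near the 12.8% of all genes. AURKA (-0.25 ± 0.073) and CDC20 (-0.29 ± 0.079) were among the 6 with a lower effect with abiraterone. These 6 became 2 without abiraterone replicate A, olaparib replicate C or combination replicate A. For S phase genes 4 of 43 differed, a share below that of all genes, and all of these 4 had a higher effect with abiraterone. The count of higher effects became 12 without DMSO replicate A and 2 without DMSO replicate C or abiraterone replicate B.

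Glycolysis and hypoxia genes behaved differently in the absence and presence of abiraterone. Olaparib alone raised 20 of 37 and lowered 1 (median 0.24), where 19.6% of all genes rose and 16.0% fell. Olaparib added to abiraterone raised 1 and lowered 12 (median -0.12), where 14.4% of all genes rose and 14.7% fell. The effect was lower with abiraterone for 24 of the 37 and higher for 1, where 8.08% and 4.74% of all genes were. LDHA (ENSG00000134333.15, GRCh38 chr11:18394560-18408425), lactate dehydrogenase, had 1168, 1139.9 and 998 CPM with DMSO, 1311, 1222 and 1118 CPM with olaparib, 691, 731 and 794 CPM with abiraterone and 536, 511 and 502 CPM with the combination.

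LDHA was thus lower in every combination library than in any library of DMSO, olaparib or abiraterone. It changed by -0.52 ± 0.085 with abiraterone and 0.14 ± 0.084 without (adjusted p = 2.82e-04 and 0.215 by edgeR's quasi-likelihood test), and the difference was -0.66 ± 0.12 (adjusted p = 0.00196). PFKP, a phosphofructokinase, changed by -0.32 with abiraterone and 0.43 without, a difference of -0.75 ± 0.13. Its fall lost the call without abiraterone replicate C or combination replicate A (adjusted p of at most 0.0608). P4HA2, a prolyl hydroxylase of collagen, changed by -0.30 ± 0.077 and -0.013 ± 0.070, and the difference did not pass (adjusted p = 0.0679, edgeR's quasi-likelihood test).

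Further members, picked after their values were seen, rose with olaparib alone. NDRG1, a stress gene that hypoxia and androgen both induce, had 178, 152 and 138 CPM with DMSO and 494, 447 and 419 CPM with olaparib. With abiraterone it had 81.7, 88.1 and 91.1 CPM and with the combination 94.2, 97.5 and 84.8 CPM, which overlap. Its log2 fold changes were 1.54 ± 0.087 and 0.087 ± 0.094, and the difference -1.45 ± 0.13 (adjusted p = 2.84e-06, edgeR's quasi-likelihood test). The aldolases ALDOA and ALDOC had differences of -0.48 ± 0.065 and -0.79 ± 0.18, pyruvate kinase PKM -0.30 ± 0.035 and the angiogenic factor VEGFA -0.49 ± 0.10. In contrast HIF1A, the hypoxia factor itself, rose in both settings, by 0.17 and 0.15. The 24 lower effects ranged from 18 to 27 over the alternative fits, a count added after seeing the data.

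**Figure D4:**
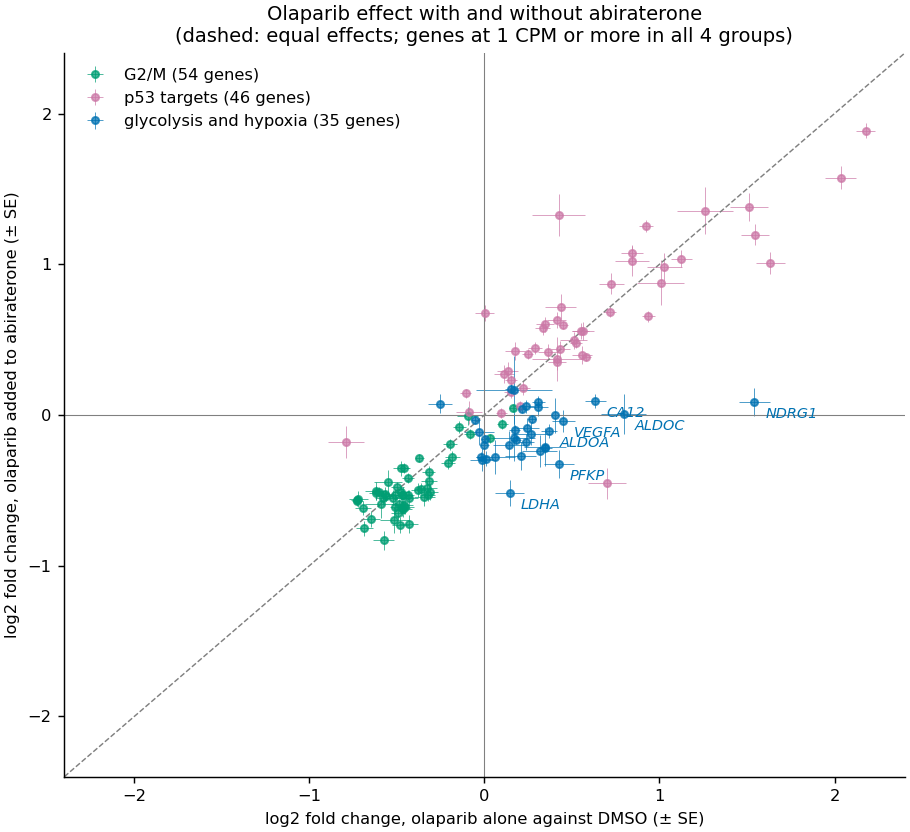
Log2 fold change with olaparib added to abiraterone (vertical, ± SE) against that of olaparib alone over DMSO (horizontal, ± SE) for members of 3 gene lists at 1 CPM or more in all 4 groups. The p53 genes lie on both sides of the dashed line of equal effects, whereas most glycolysis and hypoxia genes lie below it, with NDRG1 at 1.54 and 0.087.

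Other lists were compared in the same way, against 8.08% lower and 4.74% higher over all genes. For MYC targets and ribosome biogenesis the effect was lower with abiraterone for 14 of 35 and higher for none. Olaparib alone raised 4 of these genes and lowered 9 (median 0.0012). It raised 19.6% and lowered 16.0% of all genes, so the share of rises in the list is below that of all genes. The 14 became 9 without DMSO replicate B, abiraterone replicate A, or olaparib replicate B or C. For cholesterol and fatty acid synthesis 12 of 33 were lower and 1 higher, with FADS2 at -0.49 ± 0.034 and SCD at -0.39 ± 0.041. For the unfolded protein response 10 of 30 were lower and 2 higher. For fatty acid oxidation 3 of 30 were lower and 2 higher, near the shares of all genes.

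The amino acid response went the opposite way, with a higher effect in the presence of abiraterone for 11 of 32 and a lower one for 1, against 4.74% and 8.08% of all genes. SLC7A11 changed by -1.64 ± 0.071 with olaparib alone, from 190.4, 190.0 and 176 CPM to 61.1, 61.4 and 56.1 CPM, and the difference was 0.46 ± 0.10 (adjusted p = 0.00744, edgeR's quasi-likelihood test). PSAT1 differed by 0.42 ± 0.066, TRIB3 by 0.39 ± 0.087 and SESN2 by 0.67 ± 0.078. SESN2 had 22.9, 23.0 and 20.4 CPM with DMSO and 21.1, 22.6 and 22.5 CPM with olaparib, so its rise was seen with abiraterone and not without.

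For homologous recombination genes the effect was higher with abiraterone for 9 of 46 and lower for none, against 4.74% and 8.08% of all genes. With DMSO replicate A left out this was 14, with no filter on low counts 14, and with DESeq2 16. BARD1, the partner of BRCA1, had 73.3, 82.5 and 83.3 CPM with DMSO, 56.9, 58.8 and 60.0 CPM with olaparib, 184, 181 and 176 CPM with abiraterone and 192 ± 7.56 CPM with the combination (SD, n = 3). It changed by -0.45 ± 0.041 with olaparib alone and had 0.087 ± 0.037 with abiraterone, where it did not pass (difference 0.53 ± 0.055, adjusted p = 2.54e-08, edgeR's quasi-likelihood test).

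For androgen-responsive genes olaparib alone raised 39 of 64 and lowered 10 (median 0.19), where 19.6% of all genes rose and 16.0% fell, so the share of falls is near that of all genes. The effect was lower with abiraterone for 17 and higher for 9, against 8.08% and 4.74% of all genes. FKBP5 had 1112, 1127 and 1095 CPM with olaparib, a rise of 0.40 ± 0.025 over DMSO, against -0.054 with abiraterone (difference -0.46 ± 0.038, adjusted p = 1.46e-10, edgeR's quasi-likelihood test). TMPRSS2 rose by 0.73 ± 0.073 with olaparib alone and the difference was -0.45 ± 0.11. For KLK3 the effect was 0.18 ± 0.044 alone, and the difference of -0.13 ± 0.063 did not pass (adjusted p = 0.193, edgeR's quasi-likelihood test). The transporter ABCC4 changed by -0.19 with olaparib alone and 0.52 with abiraterone, a difference of 0.70 ± 0.039.

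Over all genes with at least 100 counts in their highest group, the largest positive differences belonged to TMTC1, RNF152, LINC01133, KIAA0408 and CNTN5. TMTC1, a mannosyltransferase of the endoplasmic reticulum, rose by 0.92 ± 0.12 with abiraterone and changed by -0.55 ± 0.15 without (difference 1.47 ± 0.19). For RNF152, a lysosomal ubiquitin ligase, and the non-coding LINC01133 the differences were 1.45 ± 0.25 and 1.39 ± 0.18, since both fell with olaparib alone and did not pass with abiraterone. KIAA0408 and CNTN5, a neural adhesion molecule, had 1.25 ± 0.29 and 1.22 ± 0.30. CNTN5 was at 0.475, 0.378 and 0.456 CPM with DMSO and 0.184, 0.282 and 0.201 CPM with olaparib. The rises of KIAA0408 and CNTN5 with abiraterone, 0.57 and 0.25, lost the call without abiraterone replicate B or C or combination replicate A (adjusted p of at most 0.188, edgeR's quasi-likelihood test), and that of KIAA0408 also without combination replicate C.

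The largest negative differences were SMOC1, CYP1A2, BTBD19, RCAN2 and DNASE1L3. SMOC1, a matrix protein of the SPARC family, rose by 2.47 ± 0.44 with olaparib alone and had 0.30 ± 0.22 with abiraterone, without a call. CYP1A2, a xenobiotic-metabolizing enzyme, rose in both, by 3.06 ± 0.46 and 1.22 ± 0.26. The calcineurin regulator RCAN2 and the nuclease DNASE1L3 also rose in both, with differences of -1.68 ± 0.56 and -1.50 ± 0.36. Apart from BTBD19 these genes were at or under 0.152 CPM in every DMSO library. BTBD19 rose by 1.09 alone and changed by -0.68 with abiraterone, which lost its call without abiraterone replicate B (adjusted p = 0.0788, edgeR's quasi-likelihood test).

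Among the largest changes, 11 of the 12 rises also rose with olaparib alone, PLCG2 being the exception (adjusted p = 0.0539, edgeR's quasi-likelihood test). Of the 12 falls 10 also fell with olaparib alone, and the others were MAGEA2B and DHRS2, whose difference was -1.03 ± 0.13. The rises of CEL (-1.10 ± 0.18) and CEACAM1 (-1.06 ± 0.36) were smaller with abiraterone, and that of FYB2 was larger (1.09 ± 0.24).

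Talazoparib added to enzalutamide, another PARPi on another ARPi, offered a reference with no library in common. It changed 6414 genes against enzalutamide alone (34.4%), and 4082 of these were among the 5436 (75.1% of the olaparib changes and 63.6% of the talazoparib changes). Of the 4082, 4072 moved the same way and 10 the opposite way, and across all genes the Pearson correlation was 0.35. The difference between the additions passed edgeR's quasi-likelihood test for 109 genes (0.585%), 68 higher (0.365%) and 41 lower (0.220%) with olaparib and abiraterone. This count depended on the fit, with 65 without enzalutamide replicate C, 66 and 71 without replicates C and B of enzalutamide plus talazoparib, 69 without combination replicate B, 181 with only the groups compared, 263 with DESeq2 and 279 with no filter on low counts. The PARPi, the ARPi and their doses all differ between the pairings and cannot be told apart.

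The main lists moved in the same direction in both pairings. With talazoparib 38 of 50 p53 targets rose (median 0.51, where 16.5% of all genes rose), 50 of 54 G2/M genes fell (median -0.47, where 17.9% of all genes fell) and 12 of 37 glycolysis and hypoxia genes fell (median -0.096). Of the lists, the amino acid response differed most, with a higher change with olaparib and abiraterone for 14 of 32 members and a lower one for none. Over all genes these shares were 0.365% and 0.220%. TRIB3, a pseudokinase that ATF4 induces, changed by -0.63 ± 0.066 with olaparib and -1.26 ± 0.059 with talazoparib (difference 0.63 ± 0.088, adjusted p = 2.74e-04, edgeR's quasi-likelihood test). Its starting levels differed, with means of 31.9 CPM with abiraterone and 55.4 CPM with enzalutamide. The means were 20.6 CPM with olaparib added and 23.1 CPM with talazoparib added. SESN2 rose by 0.68 ± 0.055 with olaparib and had -0.0091 ± 0.051 with talazoparib, from 27.7, 26.7 and 29.2 CPM with enzalutamide to 27.4, 28.1 and 27.6 CPM, which overlap. XBP1 changed by -0.50 ± 0.038 with olaparib and -0.74 ± 0.037 with talazoparib (difference 0.25 ± 0.053).

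For androgen-responsive genes the change was lower with olaparib and abiraterone for 7 of 64 and higher for none, against 0.220% and 0.365% of all genes. TRPM8 rose by 0.92 with olaparib and 1.51 with talazoparib (difference -0.59 ± 0.13, adjusted p = 0.0206, edgeR's quasi-likelihood test). ZBTB16, a zinc finger factor that androgen and glucocorticoid induce, rose from 28.6, 28.7 and 30.1 CPM to 47.0, 43.6 and 44.9 CPM with olaparib and from 11.5, 9.15 and 9.36 CPM to 26.9, 25.1 and 24.5 CPM with talazoparib. Every library with the PARPi lay above those without it in both pairings, and the difference between the changes was -0.74 ± 0.10. The muscle gene MYBPC1 differed by -0.63 ± 0.14, ZBTB34 by -0.50 ± 0.11 and CNKSR3 by -0.47 ± 0.10. In the other direction SIPA1L2 differed by 0.70 ± 0.10, the actin-binding SVIL by 0.70 ± 0.15 and GADD45G by 0.63 ± 0.14. CDKN1A rose by 1.89 ± 0.051 with olaparib and 2.13 ± 0.052 with talazoparib, and its difference of -0.24 ± 0.072 did not pass (adjusted p = 0.176, edgeR's quasi-likelihood test).

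Messenger RNAs of the mitochondrial genome, looked at after their share of counts was seen to differ, also rose. Of the 13, which code for subunits of the respiratory chain, 12 rose with olaparib added to abiraterone, with a median of 0.30, where 14.4% of all genes rose. With olaparib alone 13 rose (median 0.38), where 19.6% of all genes did. MT-ND5 had 4599, 4906 and 4698 CPM with abiraterone and 6341, 6167 and 5949 CPM with the combination, without overlap, a log2 fold change of 0.38 ± 0.051. The exception was MT-ND6 at 0.20 ± 0.10, the sole member on the light strand.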

How the data were processed

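C4-2B cells were sequenced in 3 libraries per treatment, each harvested at day 5. According to the study's methods, reads were trimmed with Trim Galore, aligned to GRCh38 with STAR and quantified with Salmon against GENCODE. The authors deposited the result as 1 table of estimated counts per gene, in whole numbers. How the Salmon estimates were made whole is not given in the sources used here. Gene models come from a later GENCODE release than the 44 used here for symbols, and 62666 of 63187 IDs matched, 521 did not.

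The 21 panel libraries (7 groups) were fitted together with edgeR's quasi-likelihood test (edgeR 4.0.16, R 4.3.3, TMM scaling, filterByExpr by group, 18625 genes), and p-values were adjusted by the Benjamini-Hochberg method. The 18 time course libraries were not used. Contrasts were the combination against abiraterone, olaparib against DMSO, enzalutamide plus talazoparib against enzalutamide, and the differences of these. CPM values are TMM-scaled with no prior count. Fitted log2 fold changes used edgeR's default prior count. The method was checked on simulated counts. Depth ran from 26932205 to 37975379 counts in the libraries compared, so that low genes carry larger standard errors.

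Named genes were the 12 largest rises and falls among called genes with a symbol, at least 100 counts on average in the higher group and no overlap between groups, the 5 largest in each direction for each difference, the 3 with the largest change of each list, and genes the study discusses, some of which are not reported here. Further list members and the genes of the plots were chosen after their values were seen. The members and lists were chosen with earlier results of these data known, so no list is independent support. G2/M and S phase lists come from Seurat 5.3.0.

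The alternatives were RLE (DESeq2 size factors) and total count scaling, no filter or a mean of at least 10 counts, stricter calls, a replicate block, only the groups compared, DESeq2 1.42.0, and leaving out each library. Counts of list members whose olaparib effect differed were added to these after seeing the data. Letters A to C were not treated as pairs in the main fit. No correlation of same-letter deviations exceeded 0.1, which cannot show whether the libraries were paired in culture or preparation.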

Additional observations from a re-analysis of the deposited data

Results flagged for a closer look

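All values here are differences between 2 effects of a PARPi that passed edgeR's quasi-likelihood test at an adjusted p under 0.05. No explanation for them was tested.

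The effect of olaparib on the log2 scale differed with and without abiraterone for 2386 genes. Among the genes with the largest changes when olaparib was added, it was lower with abiraterone for CEL (-1.10), CDKN1A (-0.29), CEACAM1 (-1.06), MAGEA2B (-1.35), MAB21L4 (-0.64) and DHRS2 (-1.03). It was higher for FYB2 (1.09), SLC7A11 (0.46) and BCAT1 (0.29). The largest positive differences were TMTC1 (1.47), RNF152 (1.45), LINC01133 (1.39), KIAA0408 (1.25) and CNTN5 (1.22). The largest negative ones were SMOC1 (-2.16), CYP1A2 (-1.84), BTBD19 (-1.77), RCAN2 (-1.68) and DNASE1L3 (-1.50). CNTN5, SMOC1, CYP1A2, RCAN2 and DNASE1L3 had means of at most 0.437 CPM with DMSO.

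Among members of the gene lists the effect was lower with abiraterone for the glycolytic LDHA (-0.66) and PFKP (-0.75), for the lipid genes TM7SF2 (-0.29), FADS1 (-0.27) and FADS2 (-0.49), and for ODC1 (-0.16) and SRM (-0.25) of polyamine synthesis. It was lower too for CREB3L2 (-0.21) and SSR3 (-0.14) of the secretory pathway, the p53 target SPATA18 (-0.46), the mitotic kinase AURKA (-0.25) and PARP10 (-0.28). Androgen-responsive genes with a lower effect were FKBP5 (-0.46), TMPRSS2 (-0.45) and RHOU (-0.18), and markers of other lineages were LAMB3 (-1.19), VIM (-0.50) and CD68 (-0.68). It was higher for SESN2 (0.67) and TRIB3 (0.39) of the amino acid response, TRPM8 (0.70), ACP3 (0.24), ATM (0.30), EZH2 (0.20), ACADL (0.54) and TNFAIP8 (0.33). Of genes on none of the lists, it was higher for ZBTB16 (0.50) and SVIL (0.63).

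The change with olaparib added to abiraterone differed from that with talazoparib added to enzalutamide for 109 genes, a count between 65 and 279 under the alternatives at the same threshold. It was higher for SVIL (0.70), SIPA1L2 (0.70), SESN2 (0.68), GADD45G (0.63), TRIB3 (0.63) and XBP1 (0.25). It was lower for ZBTB16 (-0.74), MYBPC1 (-0.63), TRPM8 (-0.59), ZBTB34 (-0.50) and CNKSR3 (-0.47).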

How the results depend on the processing

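No gene called for the combination against abiraterone was called with the opposite sign under the alternatives run on that comparison. Leaving out each library in turn gave 4485 to 4910 genes changed by adding olaparib to abiraterone, 2082 to 2380 genes raised by adding olaparib to abiraterone and 2277 to 2581 genes lowered by adding olaparib to abiraterone, 1801 to 2494 genes whose olaparib effect differs with and without abiraterone, and 65 to 113 that differed from talazoparib added to enzalutamide, the 65 without enzalutamide replicate C. At an adjusted p under 0.01 the last 2 counts were 1250 and 51. Where calls also needed a change of 1 on the log2 scale in either direction, the counts were 355 changed, 269 raised, 86 lowered, 136 and 1. The count of 109 became 279 with no filter on low counts, 181 with only the groups compared, and 263 with DESeq2. With the replicate block 5351 genes were changed (2646 raised and 2705 lowered), and 2306 and 102 differed. Whether the letters pair the libraries is not known. Total count scaling moved the median of all genes from 0.0092 to -0.016 and the calls to 2221 raised and 3374 lowered, against 2691 and 2745. Medians near 0 changed sign for the BCL2 family (-0.0048 with total count scaling) and for NF-kB targets (-0.011 and -0.016 without abiraterone replicate B and C, and up to 0.023 without combination replicate C), as for neuroendocrine markers (0.0088 without combination replicate C, against -0.067). The neuroendocrine median also reached -0.17 in a fit that left out a library. The cause of these shifts was not tested. Depth allowed no fold for CYP17A1, with 0 to 3 counts a library.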
